A study of Caenorhabditis elegans with 35 samples.

Results

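The 7 genes described here are 6 members of the cdr family (cdr-1, cdr-2, cdr-4, cdr-5, cdr-6 and cdr-7) and pud-4, out of 17378 genes measured on the arrays. cdr-4 and pud-4 were picked because their difference between wdr-5 mutants and wild type was not the same in the F5 and the F4 generation. The other 5 cdr genes were taken as the family for comparison. Values that went into this choice are therefore given for cdr-4 and pud-4 as a description, without a test.

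RNA came from whole L3 larvae of Caenorhabditis elegans raised at 20 degrees. The 6 groups were F5 wdr-5/wdr-5 mutants (6 arrays), F5 genetically wild type animals descended from mutants (+/+ from wdr-5, 5 arrays), F5 wild type descended from wild type (+/+ from +/+, 6 arrays), and the same 3 groups in F4 with 6 arrays each. The gene mutated is wdr-5.1, whose WD-repeat product belongs to the machinery that places methyl groups on histone H3 at lysine 4. Each group held animals of birth day 2 and of birth day 1, the second and the first day of egg laying. The labels name neither the allele nor separate cultures, so the p-values measure the spread between these RNA samples only. They give no harvest or hybridisation time, so generation and time of handling cannot be told apart.

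The cdr genes take their name from cadmium: cdr-1 was found as a transcript that cadmium induces in the worm intestine. The proteins they encode resemble glutathione S-transferases, and the family has been linked to osmotic regulation as well as to cadmium. cdr-5 is also known as hrg-2, a gene that responds to low heme. pud stands for proteins up-regulated in daf-2 mutants, which carry a weakened insulin/IGF receptor and live long. The function of the PUD proteins is not well known. In RefSeq's gene table (WBcel235), cdr-4, hrg-2, cdr-7, cdr-6, cdr-2 and cdr-3 follow each other on chromosome V with no other protein-coding gene between them, and cdr-1 lies apart on the same chromosome. pud-4 lies on chromosome V too, between pud-3 and pud-2.1.

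Of the 20806 probe sets tested, 1 stood for each member except cdr-7, whose 2 probe sets carried identical values and count as 1 measurement. The probe set of pud-4 is deposited under the sequence name F15E11.12, which the RefSeq table pairs with pud-4. Levels are log2 intensities, and the percentile of a level is taken among all probe sets of its array. cdr-2, cdr-4 and cdr-6 were bright, at percentile 70.6 to 93.3 over the 35 arrays. cdr-7 lay at percentile 47.4 to 75.0, cdr-1 at 33.5 to 52.3 and cdr-5 at 22 to 50.5. pud-4 was the dimmest of the 7, at percentile 6.72 to 47.1. cdr-3, the remaining family member, is not among the 7 and stayed between percentile 2.41 and 14.6. Levels of different probe sets depend on their probes, and whether probes of the cdr family share targets was not assessed.

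The days were deposited with different lower ends, a 5th percentile of 4.12 to 4.21 log2 on birth day 2 and of 3.04 to 3.23 log2 on birth day 1. They were therefore compared only within a day or with a birth day term. Arrays of 1 group and day correlated at 0.973 to 0.997. The wdr-5.1 transcript differed between mutants and +/+ from +/+ by -3.77 ± 0.14 log2 in F5 and -3.63 ± 0.14 log2 in F4 (SE). Markers of intestine, hypodermis, muscle, neurons and germline lay at percentile 59.2 or above on every array. The mean of 6 yolk genes, which the adult intestine expresses at high levels, ran from 6.76 to 11.5 log2 over the arrays. col-19, a marker of adult cuticle, ran from percentile 55.3 to 97.3, and spe-11, a marker of sperm, from 47.0 to 82.9. In bulk larvae, fewer cells of a type and less RNA per cell cannot be told apart.

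cdr-4 was higher in mutants than in +/+ from +/+ in F5 and lower in F4, on both birth days. Its level on the F5 mutant arrays was 7.74, 7.76 and 8.37 log2 on birth day 2 and 8.34, 8.53 and 8.62 log2 on birth day 1. The F5 +/+ from +/+ arrays had 7.64, 6.74 and 7.31 log2 on birth day 2 and 8.13, 8.0 and 8.14 log2 on birth day 1. Within each day, all 6 mutant arrays lay above every +/+ from +/+ array, as 8.48% of all probe sets did. In F4, the mutant arrays had 7.96, 7.65 and 7.80 log2 on birth day 2 and 8.40, 8.02 and 8.12 log2 on birth day 1. The F4 +/+ from +/+ arrays had 8.74, 8.83 and 9.38 log2 on birth day 2 and 9.25, 8.90 and 8.50 log2 on birth day 1. Here all 6 mutant arrays lay below every same-day +/+ from +/+ array, as 3.03% of all probe sets did.

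The mutant difference of cdr-4 was 0.57 ± 0.16 log2 in F5 and -0.94 ± 0.16 log2 in F4 (SE, 6 arrays a group), which is a level 1.48 times and 0.520 times that of +/+ from +/+. By day, it was 0.73 ± 0.22 log2 on birth day 2 and 0.41 ± 0.22 log2 on birth day 1 in F5, and -1.18 ± 0.22 and -0.71 ± 0.22 log2 in F4 on the same days. The F5 difference minus the F4 difference came to 1.51 ± 0.23 log2, or 1.91 ± 0.32 on birth day 2 and 1.11 ± 0.32 on birth day 1.

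Between the generations, cdr-4 differed more in +/+ from +/+ than in mutants, which restates the same contrast. In mutants, the F5 minus F4 value was 0.23 log2 (95% interval -0.09 to 0.56). In +/+ from +/+ it was -1.28 log2 (95% interval -1.60 to -0.95), and all 6 F5 arrays lay below every same-day F4 array, as 4.05% of all probe sets did. The difference in +/+ from +/+ was -1.75 log2 on birth day 2 and -0.80 log2 on birth day 1.

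**Figure D1:**
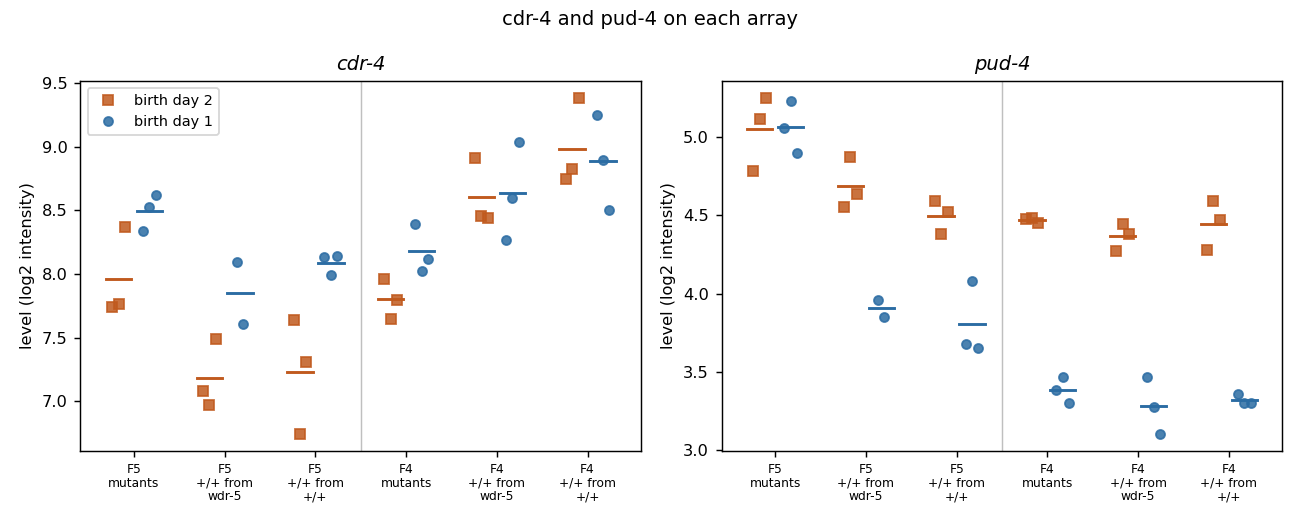
Level (log2 intensity) of cdr-4 and pud-4 on each of the 35 arrays, by group along the horizontal axis; squares are birth day 2, circles birth day 1, and bars are the means of a group and day. cdr-4 of the F5 +/+ groups lies below that of the F4 +/+ groups while the mutants stay between 7.65 and 8.62, and pud-4 stands highest in the F5 mutants.

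The +/+ from wdr-5 animals gave the only generation comparison that shares no array with the choice of cdr-4 and pud-4. Their cdr-4 level was 7.08, 6.97 and 7.49 log2 on birth day 2 and 8.09 and 7.61 log2 on birth day 1 in F5. In F4 it was 8.91, 8.46 and 8.44 log2 on birth day 2 and 8.27, 8.60 and 9.04 log2 on birth day 1. All 5 F5 arrays lay below every same-day F4 array, as 5.3% of all probe sets did. cdr-4 fell by 1.1 log2 in F5 relative to F4 (SE 0.17, adjusted p = 4.8e-05 by limma with Benjamini-Hochberg adjustment over all probe sets, as for every adjusted p here). Of the 7 genes, 3 passed the threshold of 0.05 in this comparison, 2 higher and 1 lower, where 24.7% of all probe sets did (20% higher and 4.76% lower).

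In +/+ from wdr-5, pud-4 was higher in F5 than in F4. Its level was 4.56, 4.87 and 4.63 log2 on birth day 2 and 3.96 and 3.85 log2 on birth day 1 in F5. In F4 it was 4.27, 4.44 and 4.38 log2 on birth day 2 and 3.46, 3.27 and 3.10 log2 on birth day 1. All 5 F5 arrays lay above every same-day F4 array, as 11.6% of all probe sets did. The difference was 0.51 ± 0.11 log2 (SE, adjusted p = 0.0023), or 1.42-fold. On birth day 2 alone it was 0.32 log2 and missed the threshold (adjusted p = 0.13). That was 1 of 3 alternatives in which the call was lost, with an adjusted p of up to 0.37. The F4 levels sat at percentile 6.72 to 16.6 of their arrays, near the low end. Whether the size of this rise depends on each day's lower end was not tested.

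Among the other cdr genes, cdr-6 was higher in F5 than in F4 in +/+ from wdr-5, by 0.34 ± 0.12 log2 (SE, adjusted p = 0.032). The call was lost on birth day 2 alone (0.35 log2, adjusted p = 0.25), on birth day 1 alone (0.27 log2, adjusted p = 0.19), with quantile normalization over all arrays (0.27 log2, adjusted p = 0.11) and with the yolk mean as a covariate (0.17 log2, adjusted p = 0.39). A birth day term common to both generations lost the call too, as did leaving out the birth day term. It was also lost without F4 replicate 1 (0.32 log2, adjusted p = 0.061) or replicate 2 (0.32 log2, adjusted p = 0.056), and without F5 replicate 5 (0.31 log2, adjusted p = 0.069) or replicate 6 (0.26 log2, adjusted p = 0.12). cdr-2 was at -0.38 ± 0.16 log2 (SE, adjusted p = 0.068). The other 3 genes, cdr-1, cdr-5 and cdr-7, had differences of 0.13 to 0.32 log2 and did not pass.

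pud-4 was higher in mutants than in +/+ from +/+ in F5, and in F4 the groups overlapped near the low end of the arrays. On the F5 mutant arrays it had 4.78, 5.11 and 5.25 log2 on birth day 2 and 5.06, 5.23 and 4.90 log2 on birth day 1. The F5 +/+ from +/+ arrays had 4.59, 4.38 and 4.52 log2 on birth day 2 and 3.68, 4.08 and 3.65 log2 on birth day 1. All 6 mutant arrays lay above every same-day +/+ from +/+ array, again as 8.48% of all probe sets did. In F4, mutants had 4.48, 4.48 and 4.45 log2 on birth day 2 and 3.39, 3.46 and 3.30 log2 on birth day 1. The F4 +/+ from +/+ arrays had 4.28, 4.59 and 4.47 log2 on birth day 2 and 3.36, 3.30 and 3.30 log2 on birth day 1. The F4 mutants thus lay at percentile 13.3 to 18.8, and the F5 mutants at percentile 35 to 47.1.

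The mutant difference of pud-4 was 0.91 ± 0.11 log2 in F5, 1.87-fold, and 0.04 ± 0.11 log2 in F4 (SE). In F5 it was 0.55 ± 0.12 log2 on birth day 2 and 1.26 ± 0.12 log2 on birth day 1. The day 2 value minus the day 1 value was -0.71 ± 0.16 log2 as deposited and -0.09 log2 after quantile normalization over all arrays, which gives both days the same lower end. The F5 difference minus the F4 difference was 0.86 ± 0.15 log2 (0.53 on birth day 2 and 1.2 on birth day 1). Between F5 and F4, pud-4 differed by 1.13 ± 0.11 log2 in mutants and by 0.27 ± 0.11 log2 in +/+ from +/+ (SE). In +/+ from +/+ this was 0.05 log2 on birth day 2 and 0.48 log2 on birth day 1.

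In this contrast of mutant differences, cdr-4 and pud-4 were the 2 probe sets of 20806 past the threshold (0.00961%), which is how they were picked. This count was 4184 on birth day 2 alone, 20 on birth day 1 alone, 2373 with array weights, 21 with quantile normalization and 0 without a birth day term. pud-4 lay just inside. Just outside, singled out after its value was seen, was asp-12, an aspartyl protease gene, at 1.43 ± 0.28 log2 (SE). Of the 5 cdr genes not picked, 0 passed, by limma, and 2 had an unadjusted p under 0.05. Of all 20806 probe sets, 2914 had an unadjusted p under 0.05 in this contrast. cdr-2 had 0.84 ± 0.21 log2 (SE, adjusted p = 0.099), with 0.51 on birth day 2 and 1.17 on birth day 1. cdr-5 had 0.33 ± 0.14 log2 (SE, adjusted p = 0.26). cdr-1, cdr-6 and cdr-7 lay between -0.01 and 0.11 log2.

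**Figure D2:**
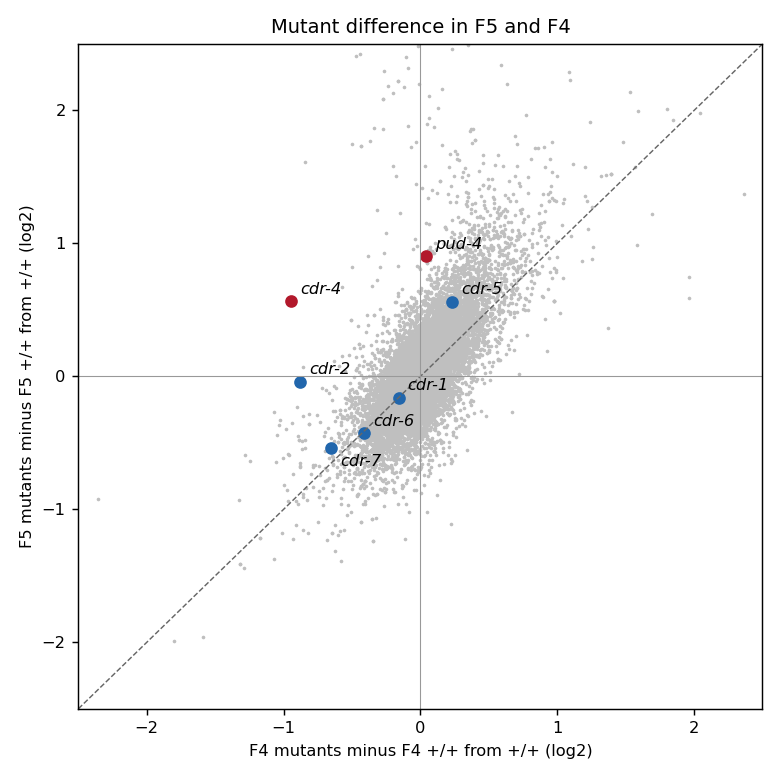
Mutant minus +/+ from +/+ (log2) in F5 on the vertical axis and F4 on the horizontal axis; grey points are all probe sets (14 lie beyond the axes at 2.5), red points cdr-4 and pud-4, blue points the other cdr genes, and the dashed line marks equal differences. cdr-4 lies in the upper left, at 0.57 in F5 and -0.94 in F4, and cdr-1, cdr-6 and cdr-7 lie near the line.

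Against +/+ from +/+, the 5 cdr genes that were not picked split by gene. In F5, 1 was higher in mutants (cdr-5) and 2 were lower (cdr-6 and cdr-7), where 33.1% of all probe sets passed (16.9% higher and 16.1% lower). In F4, 0 were higher and 3 were lower (cdr-2, cdr-6 and cdr-7), where 10.3% passed (4.77% higher and 5.53% lower). cdr-1 did not pass in either, at -0.16 ± 0.079 log2 in F5 (adjusted p = 0.12) and -0.16 ± 0.079 log2 in F4 (SE, adjusted p = 0.18).

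cdr-5, the heme-responsive member, was the one that was higher in F5 mutants. Its level there was 4.98, 5.03 and 5.33 log2 on birth day 2 and 5.08, 5.37 and 5.53 log2 on birth day 1, against 4.60, 4.70 and 4.84 log2 on birth day 2 and 4.59, 4.56 and 4.64 log2 on birth day 1 in F5 +/+ from +/+. All 6 mutant arrays lay above every same-day +/+ from +/+ array, as 8.48% of all probe sets did. The difference was 0.56 ± 0.096 log2 (SE, adjusted p = 5.5e-05), with 0.40 on birth day 2 and 0.73 on birth day 1. In F4 it was 0.23 ± 0.096 log2 (SE, adjusted p = 0.11), with 4 of 6 mutant arrays above every same-day +/+ from +/+ array. cdr-5 was also higher in F5 than in F4 mutants, by 0.42 ± 0.096 log2 (SE, adjusted p = 0.0029).

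cdr-2 was lower in F4 mutants, and in F5 the groups overlapped. The F4 mutant arrays had 8.39, 8.50 and 8.57 log2 on birth day 2 and 8.16, 7.75 and 8.12 log2 on birth day 1. The F4 +/+ from +/+ arrays had 9.42, 8.93 and 9.17 log2 on birth day 2 and 9.30, 9.09 and 8.84 log2 on birth day 1. All 6 mutant arrays lay below every same-day +/+ from +/+ array, as 3.03% of all probe sets did. cdr-2 fell by 0.88 log2 (SE 0.15, adjusted p = 1.5e-04), by 0.69 on birth day 2 and 1.07 on birth day 1. In F5, the mutant arrays spread from 7.98 to 9.05 log2 and the +/+ from +/+ arrays from 8.40 to 8.78 log2. That difference was -0.04 ± 0.15 log2 (SE, adjusted p = 0.86; 95% interval -0.34 to 0.26).

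cdr-6 and cdr-7, neighbours on the chromosome, were lower in mutants of both generations. cdr-6 had 7.99, 7.90 and 8.66 log2 on birth day 2 and 7.94, 8.54 and 8.68 log2 on birth day 1 in F5 mutants, against 8.70, 8.53 and 8.56 log2 on birth day 2 and 8.68, 8.88 and 8.92 log2 on birth day 1 in F5 +/+ from +/+. Of the F5 mutant arrays, 4 of 6 lay below every same-day +/+ from +/+ array. In F4, cdr-6 had 8.17, 8.12 and 8.19 log2 on birth day 2 and 8.07, 7.96 and 7.98 log2 on birth day 1 in mutants, against 8.39, 8.33 and 8.47 log2 on birth day 2 and 8.61, 8.67 and 8.50 log2 on birth day 1 in +/+ from +/+. There, 6 of 6 mutant arrays lay below, as 3.03% of all probe sets did. cdr-6 fell by 0.43 log2 in F5 (SE 0.11, adjusted p = 0.0036) and by 0.41 log2 in F4 (SE 0.11, adjusted p = 0.013).

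cdr-7 had 5.53, 5.31 and 6.45 log2 on birth day 2 and 5.76, 6.55 and 6.37 log2 on birth day 1 in F5 mutants, against 6.12, 5.89 and 6.09 log2 on birth day 2 and 7.13, 7.12 and 6.89 log2 on birth day 1 in F5 +/+ from +/+. In F4 it had 5.81, 5.68 and 6.17 log2 on birth day 2 and 5.76, 5.95 and 6.0 log2 on birth day 1 in mutants, against 6.09, 6.09 and 6.11 log2 on birth day 2 and 7.0, 7.23 and 6.76 log2 on birth day 1 in +/+ from +/+. In each generation, 5 of 6 mutant arrays lay below and 1 above every same-day +/+ from +/+ array, the one above being replicate 6 of birth day 2. cdr-7 fell by 0.54 log2 in F5 (SE 0.16, adjusted p = 0.010) and by 0.65 log2 in F4 (SE 0.16, adjusted p = 0.0081). On birth day 2 alone the differences of cdr-7 missed the threshold, at -0.27 log2 in F5 (adjusted p = 0.33) and -0.21 log2 in F4 (adjusted p = 0.56). The same held for cdr-6, at -0.41 log2 in F5 (adjusted p = 0.056) and -0.23 log2 in F4 (adjusted p = 0.36).

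**Figure D3:**
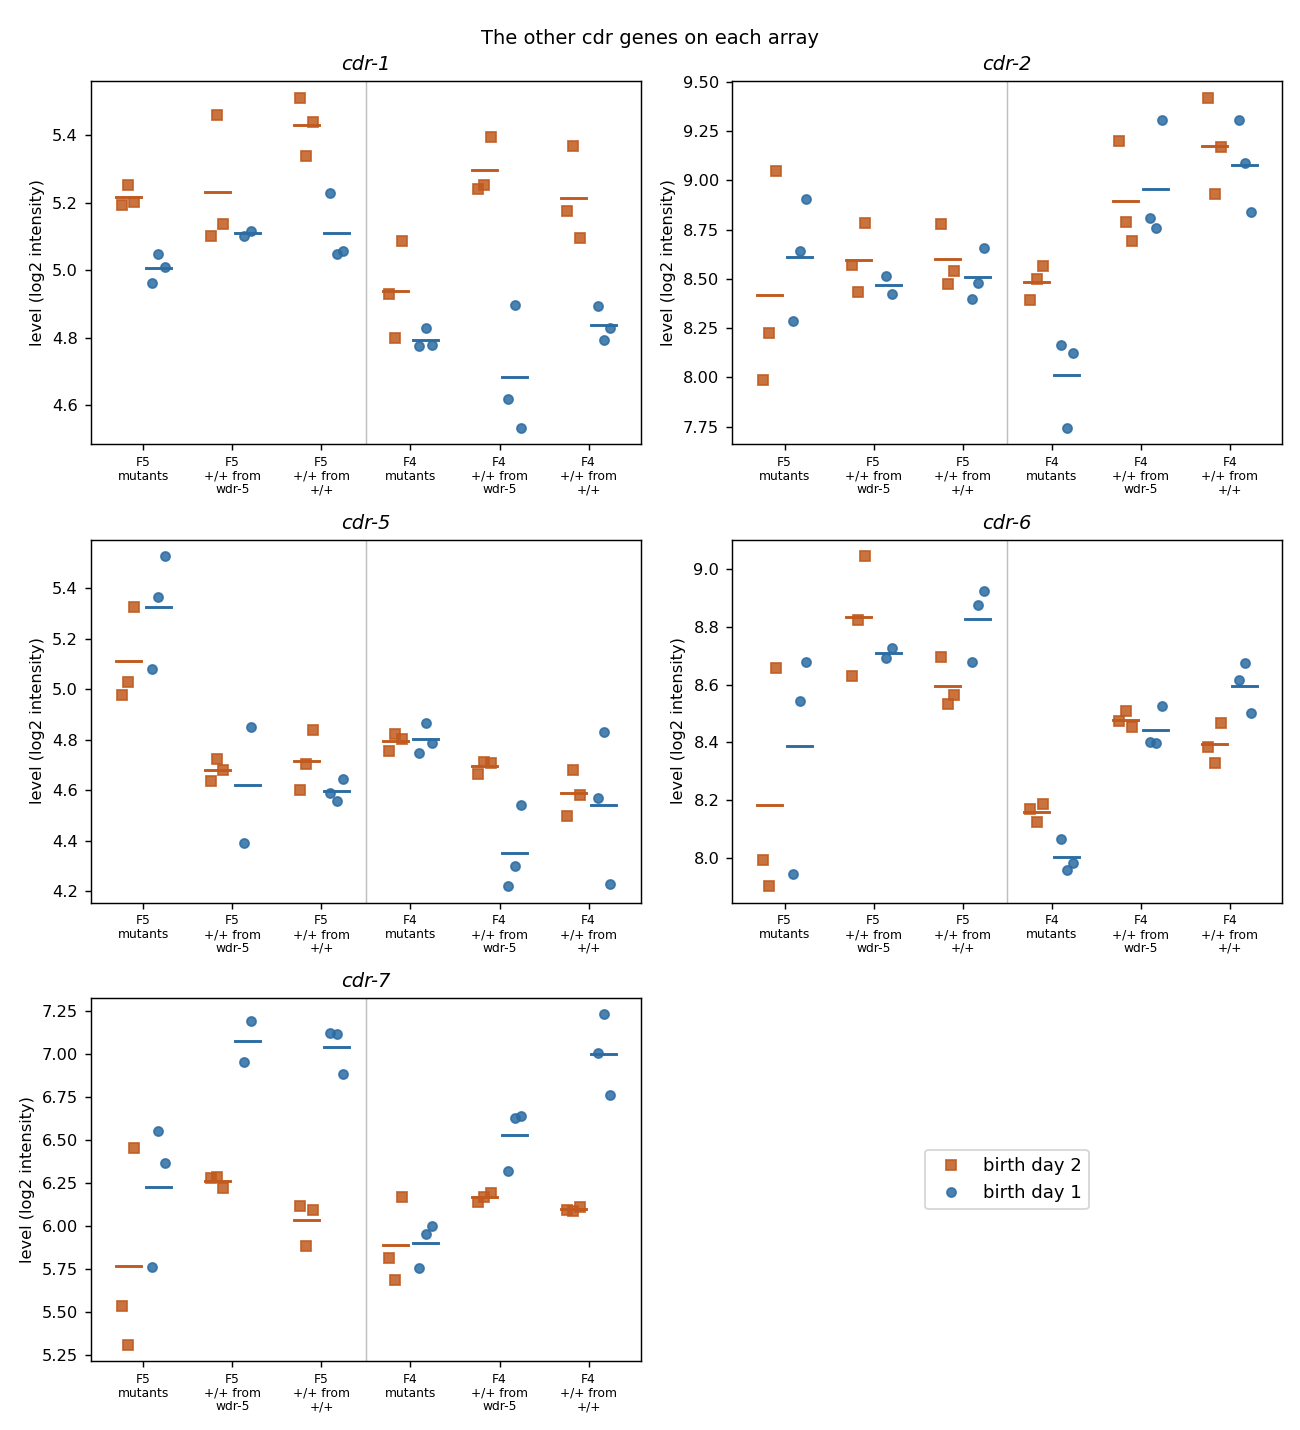
Level (log2 intensity) of the 5 other cdr genes on each array, by group along the horizontal axis; squares are birth day 2, circles birth day 1, and bars are the means of a group and day. cdr-5 is highest in the F5 mutants, the lowest means of cdr-2 and cdr-6 are those of the F4 mutants on birth day 1, and the F5 mutant arrays spread widest in cdr-2, cdr-6 and cdr-7.

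Within the F5 mutants, the arrays that were high in cdr-6 and cdr-7 were low in yolk. Replicates 6, 2 and 3 had 8.66, 8.54 and 8.68 log2 of cdr-6 with a yolk mean of 9.49, 9.30 and 8.09 log2. Replicates 4, 5 and 1 had 7.99, 7.90 and 7.94 log2 of cdr-6 with a yolk mean of 10.2, 11.4 and 11.2 log2. The yolk genes were themselves higher in F5 mutants, at 8.09 to 11.4 log2 against 6.98 to 9.58 log2 in F5 +/+ from +/+. Of them, 6 of 6 passed as higher, where 16.9% of all probe sets did. With the yolk mean as a covariate, the F5 difference was -0.24 log2 for cdr-6 (adjusted p = 0.16) and -0.24 log2 for cdr-7 (adjusted p = 0.36). The cdr-7 call also needed the shared spread: fitted on F5 mutants and F5 +/+ from +/+ alone, its adjusted p was 0.052.

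In F4, 0 of 6 yolk genes passed, with 0 at an unadjusted p under 0.05, where 10.3% of all probe sets passed. The median mutant difference of the yolk genes was -1.84 log2 on birth day 2 and 1.80 log2 on birth day 1. Their mean was 8.05 to 10.6 log2 in mutants and 10.3 to 11.5 log2 in +/+ from +/+ on birth day 2, and 10.6 to 11.3 log2 in mutants and 8.62 to 9.39 log2 in +/+ from +/+ on birth day 1. The fall of cdr-7 in F4 mutants likewise differed between the days, by 0.89 ± 0.28 log2 (birth day 2 minus birth day 1, SE, adjusted p = 0.015). It was the 1 of 5 genes that passed this test, which 33% of all probe sets passed. The call was lost without F4 mutant replicate 6 (0.75 log2, adjusted p = 0.054) and with the yolk mean as a covariate (0.43 log2, adjusted p = 0.41). In F5, 0 of 5 passed, with 0 at an unadjusted p under 0.05, where 0.0721% of all probe sets passed. The part of larval stage in these differences was not tested.

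**Figure D4:**
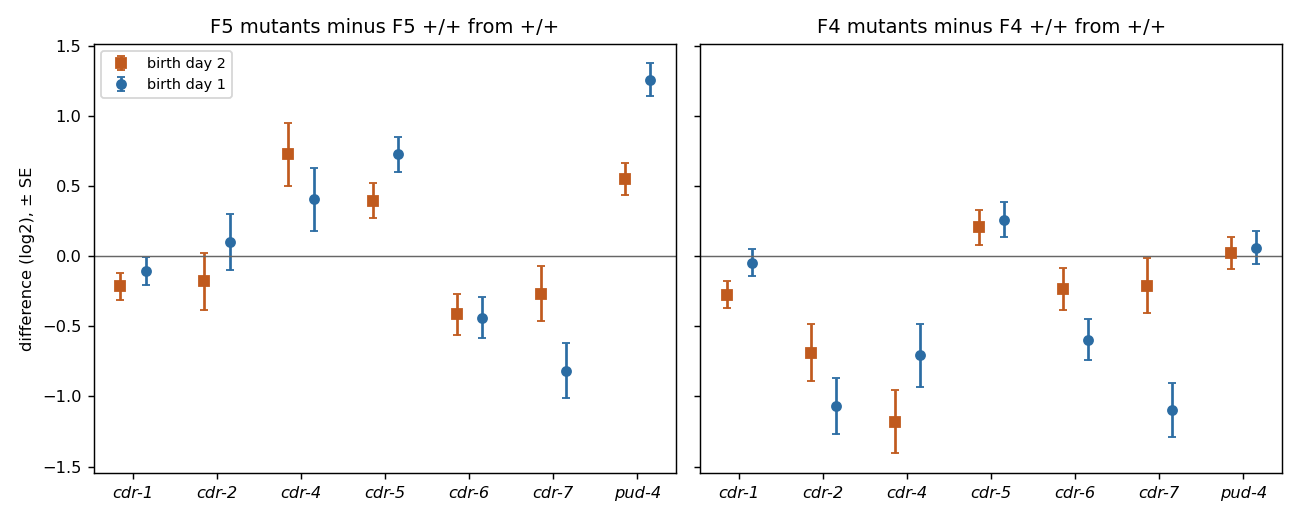
Mutant minus +/+ from +/+ (log2, vertical axis) for each gene, F5 on the left and F4 on the right, with squares for birth day 2, circles for birth day 1 and bars for the SE of a fit with a mean for each group and day. cdr-4 is above 0 on both days in F5 and below 0 on both days in F4, and cdr-7 in F4 is near -0.21 on birth day 2 and -1.1 on birth day 1.

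Genetically wild type animals with mutant ancestors did not carry any of these differences past the threshold. Of the 7 genes, 0 passed against +/+ from +/+ in F5 and 0 in F4 by limma, and 0 had an unadjusted p under 0.05 in either. Of all probe sets, 0% passed in F5 and 0% in F4, while 210 and 750 probe sets had an unadjusted p under 0.05. These comparisons share their +/+ from +/+ arrays with the values that chose cdr-4 and pud-4. cdr-4 was at -0.14 ± 0.17 log2 in F5 (95% interval -0.49 to 0.20) and -0.32 ± 0.16 log2 in F4 (SE, 95% interval -0.64 to 0.01). In F4, 3 of 6 descendant arrays lay below every same-day +/+ from +/+ array. pud-4 was at 0.18 ± 0.11 log2 in F5 (95% interval -0.05 to 0.41) and -0.06 ± 0.11 log2 in F4 (SE, 95% interval -0.28 to 0.16). The F5 minus F4 values of this difference were 0.18 ± 0.23 log2 for cdr-4 and 0.24 ± 0.16 log2 for pud-4 (SE), and 0 of 7 genes passed, as 0% of all probe sets did. The other 5 genes lay between -0.11 and 0.13 log2 in F5 and between -0.20 and -0.03 log2 in F4. Between birth days, 0 of 7 descendant differences differed in F5 (0.00961% of all probe sets) and 0 of 7 in F4 (1.81%), with 0 of 7 at an unadjusted p under 0.05 in both.

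Mutants were also set against these descendants, a comparison that shares the mutant arrays with the one against +/+ from +/+. In F5, cdr-5 was higher by 0.56 ± 0.10 log2 (adjusted p = 1.3e-04), and cdr-6 and cdr-7 fell by 0.51 (SE 0.12, adjusted p = 0.0014) and 0.67 log2 (SE 0.17, adjusted p = 0.0037). That is 1 higher and 2 lower of 5, where 30.3% of all probe sets passed (14.8% higher and 15.4% lower). cdr-1 was at -0.05 ± 0.083 log2 (adjusted p = 0.68) and cdr-2 at -0.03 ± 0.16 log2 (SE, adjusted p = 0.90). On single birth days, cdr-7 missed the threshold on birth day 2 (-0.50 log2, adjusted p = 0.077) and cdr-6 on birth day 1 (-0.32 log2, adjusted p = 0.16). With the yolk mean as a covariate, cdr-7 was at -0.39 log2 (adjusted p = 0.11).

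In F4, cdr-2 and cdr-6 fell by 0.68 log2 (SE 0.15, adjusted p = 0.0022) and 0.38 log2 (SE 0.11, adjusted p = 0.020) in mutants relative to +/+ from wdr-5. That is 0 higher and 2 lower of 5, where 11.8% of all probe sets passed (5.85% higher and 5.95% lower). cdr-7 was at -0.45 ± 0.16 log2 (adjusted p = 0.063), cdr-5 at 0.27 ± 0.096 log2 (adjusted p = 0.058) and cdr-1 at -0.12 ± 0.079 log2 (SE, adjusted p = 0.35). On birth day 2 alone, cdr-2 (-0.41 log2, adjusted p = 0.29) and cdr-6 (-0.32 log2, adjusted p = 0.24) missed the threshold. The 2 picked genes, as a description, were at 0.71 ± 0.17 log2 in F5 and -0.63 ± 0.16 log2 in F4 for cdr-4, and at 0.73 ± 0.11 log2 in F5 and 0.10 ± 0.11 log2 in F4 for pud-4 (SE).

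Between generations, 2 of the 5 other cdr genes passed in mutants and 2 in +/+ from +/+. In mutants, cdr-1 and cdr-5 were higher in F5 than in F4, 2 higher and 0 lower of 5, where 17.4% of all probe sets passed (13.5% higher and 3.82% lower). cdr-2 in mutants was at 0.27 ± 0.15 log2 (SE, adjusted p = 0.22). By day it was at -0.066 log2 on birth day 2 and 0.60 log2 on birth day 1, and it passed on birth day 1 alone (adjusted p = 0.014). In +/+ from +/+, cdr-1 was higher and cdr-2 lower in F5, 1 and 1 of 5, where 21.7% passed (16.8% higher and 4.96% lower). cdr-2 fell by 0.57 log2 there (SE 0.15, adjusted p = 0.0064). All 6 F5 arrays lay below every same-day F4 array, as 4.05% of all probe sets did. On birth day 2 alone the adjusted p of cdr-2 was 0.066 at the same size. So cdr-2 and cdr-4 were both lower in F5 than in F4 in +/+ from +/+. In mutants they had 0.27 and 0.23 log2 over both days, where cdr-2 differed in sign between the days and cdr-4 did not (0.15 and 0.32 log2).

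cdr-1 was higher in F5 than in F4 by 0.24 ± 0.079 log2 in mutants (adjusted p = 0.030) and by 0.24 ± 0.079 log2 in +/+ from +/+ (SE, adjusted p = 0.025). Both calls were lost on either birth day alone (0.21 to 0.28 log2, adjusted p = 0.064 to 0.16) and with quantile normalization over all arrays (0.23 and 0.20 log2, adjusted p = 0.098 and 0.14). Leaving out the birth day term lost both as well. A birth day term common to both generations lost the call in mutants, and the yolk covariate lost the call in +/+ from +/+. The call in mutants was lost without any 1 of 5 arrays, F4 replicates 4 and 5 and F5 replicates 2, 3 and 5 (0.19 to 0.24 log2, adjusted p = 0.050 to 0.10). The call in +/+ from +/+ was lost without any 1 of 5 arrays, F4 replicates 4 and 6 and F5 replicates 1, 4 and 6 (0.22 to 0.24 log2, adjusted p = 0.053 to 0.072).

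**Figure D5:**
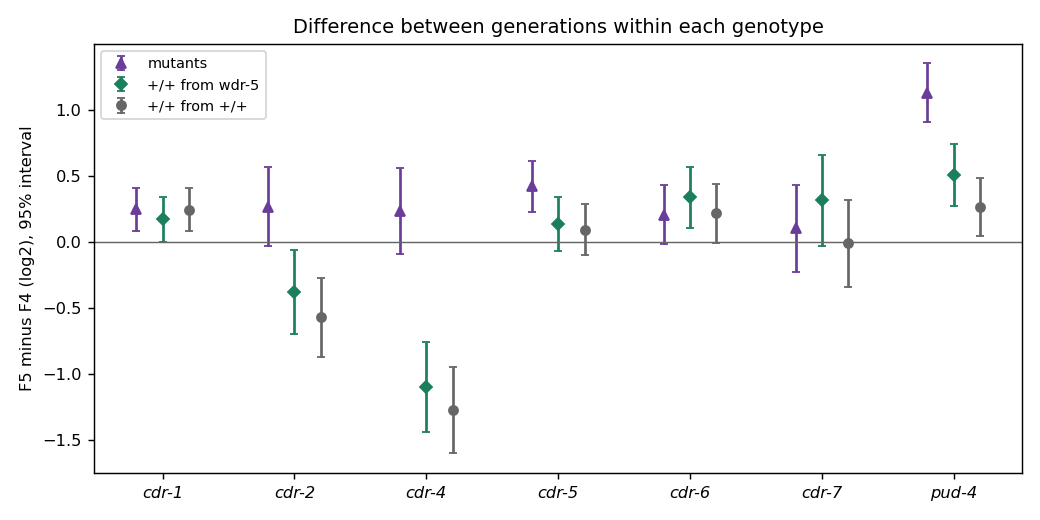
F5 minus F4 (log2, vertical axis) of each gene within mutants (triangles), +/+ from wdr-5 (diamonds) and +/+ from +/+ (circles), with 95% intervals of the fit. cdr-4 is at -1.1 and -1.28 in the +/+ groups and 0.23 in mutants, and pud-4 is at 1.13 in mutants, 0.51 in +/+ from wdr-5 and 0.27 in +/+ from +/+.

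Ordered by mean within a day, the groups stood in the same order for cdr-4 on both days, and likewise for pud-4. F4 +/+ from +/+ was highest (8.99 log2 on birth day 2 and 8.89 on birth day 1), then F4 +/+ from wdr-5 (8.60 and 8.63), F5 mutants (7.96 and 8.50) and F4 mutants (7.80 and 8.18). F5 +/+ from +/+ (7.23 and 8.09) and F5 +/+ from wdr-5 (7.18 and 7.85) came last. On birth day 1 each of these groups overlapped the next, and on birth day 2 gaps lay below F4 +/+ from wdr-5 and below F4 mutants. For pud-4, the F5 mutants were highest (5.05 log2 on birth day 2 and 5.06 on birth day 1), then F5 +/+ from wdr-5 (4.69 and 3.91) and F5 +/+ from +/+ (4.50 and 3.80), with the 3 F4 groups below at 4.37 to 4.47 and 3.28 to 3.38 log2. On birth day 1 the gaps lay below F5 mutants and below F5 +/+ from +/+, and on birth day 2 each group overlapped the next.

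The cdr genes did not vary as 1 family. Over the 35 arrays, with the mean of each birth day subtracted, cdr-6 and cdr-7 had a Pearson r of 0.83, cdr-2 and cdr-4 of 0.68, and cdr-2 and cdr-7 of 0.53. cdr-4 had r = -0.11 with cdr-6 and 0.08 with cdr-7, which lie near it on the chromosome. cdr-5 was more like pud-4 (r = 0.75) than any cdr gene, its values with those running from -0.27 to 0.14. These correlations are descriptions over 6 groups, whose means they share.

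Over all 17262 named genes compared, the 5 most like cdr-4 were ugt-62 (r = 0.80), Y41C4A.32 (0.79), warf-1 (0.77), Y94H6A.10 (0.76) and K07A1.17 (0.73), where 95% of genes had r below 0.36. ugt-62 encodes a UDP-glucuronosyltransferase by its name, and its mutant difference was -0.12 ± 0.12 log2 in F5 and -0.67 ± 0.12 log2 in F4 (SE). Y94H6A.10 had 0.82 ± 0.16 log2 in F5 and -0.29 ± 0.16 log2 in F4 (SE). The lowest r were those of irg-5 (-0.72), a gene induced by infection, spi-1 (-0.70) and wshc-2 (-0.69). irg-5 had -0.89 ± 0.16 log2 in F5 and 0.12 ± 0.16 log2 in F4 (SE). These genes were ranked by r over the same arrays, so their mutant differences follow in part from that choice and are a description.

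The gene most like pud-4 was its neighbour pud-3 (r = 0.91). It was followed by the small heat shock genes hsp-16.41 (0.90) and hsp-16.2 (0.89), the invertebrate lysozyme gene ilys-2 (0.88) and hsp-70 (0.88), an inducible chaperone gene. For pud-4, 95% of genes had r below 0.64. The mutant difference of hsp-16.41 was 2.54 ± 0.32 log2 in F5 and 0.50 ± 0.32 log2 in F4 (SE). That of hsp-16.2 was 2.52 ± 0.25 log2 in F5 and 0.82 ± 0.25 log2 in F4 (SE). Both were chosen by their r with pud-4 over the same arrays, so these values too are a description. The lowest r were those of F17A2.13 (-0.82), cpg-19 (-0.80) and lgx-1 (-0.80).

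Of the 5 other pud genes, 1 was matched to the probe sets, pud-3, whose 2 probe sets carried identical values. Its level was 5.82 to 6.01 log2 on birth day 2 and 6.54 to 7.08 log2 on birth day 1 in F5 mutants, against 5.04 to 5.37 and 5.72 to 5.94 log2 in F5 +/+ from +/+. In F4 it was 4.84 to 4.89 and 4.11 to 4.52 log2 in mutants, against 4.80 to 5.01 and 3.82 to 4.45 log2 in +/+ from +/+. pud-3 was higher in F5 mutants by 0.85 ± 0.13 log2 (adjusted p = 1.4e-05), and its F4 difference was 0.05 ± 0.13 log2 (SE, adjusted p = 0.85). It was higher in F5 than in F4 by 1.77 ± 0.13 log2 in mutants (adjusted p = 7.8e-11), 1.19 ± 0.14 log2 in +/+ from wdr-5 (adjusted p = 5.3e-07) and 0.97 ± 0.13 log2 in +/+ from +/+ (SE, adjusted p = 8.9e-06). The F5 minus F4 value of its mutant difference was 0.80 ± 0.18 log2 and missed the threshold (SE, adjusted p = 0.082).

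Other genes of cadmium and metal handling passed in both directions. Of all probe sets, 16.9% were higher and 16.1% lower in F5 mutants, and 4.77% were higher and 5.53% lower in F4 mutants. Of 21 measured, 5 were higher and 9 lower in F5 mutants than in F5 +/+ from +/+, with a median of -0.10 log2 beside -0.03 log2 over all probe sets. hsp-70, which cadmium induces, was higher by 0.85 ± 0.12 log2 (adjusted p = 2.6e-06), and cdf-2, a zinc transporter gene, fell by 0.52 log2 (SE 0.094, adjusted p = 1.2e-04). In F4, 1 was higher and 2 were lower, near the 10.3% of all probe sets, with a median of -0.12 log2 beside -0.02 log2. zipt-2.3, another zinc transporter gene, fell by 0.49 log2 (SE 0.099, adjusted p = 0.0014), and smf-1, a divalent metal transporter gene, by 0.46 log2 (SE 0.10, adjusted p = 0.0026).

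Of 16 osmotic stress genes, 0 were higher and 9 lower in F5 mutants (median -0.41 log2), where 16.1% of all probe sets were lower. In F4 mutants 1 was higher and 3 lower (median -0.02 log2), where 10.3% passed. The F4 median differed in sign between the days, at 0.21 log2 on birth day 2 and -0.29 log2 on birth day 1. hmit-1.2 and hmit-1.3, genes of myo-inositol transporters, fell by 0.66 log2 (SE 0.079, adjusted p = 3.2e-07) and 0.54 log2 (SE 0.092, adjusted p = 5.9e-05) in F5. In F4, hmit-1.3 fell by 0.42 log2 (SE 0.092, adjusted p = 0.00295) and hmit-1.2 by 0.35 log2 (SE 0.079, adjusted p = 0.0037). Of 17 insulin pathway markers, 6 were higher and 4 lower in F5 mutants, where 33.1% of all probe sets passed, and 6 were higher and 3 lower in F4 mutants, where 10.3% did. lea-1, a desiccation protein gene, was higher in both, by 2.00 ± 0.17 log2 in F5 (adjusted p = 4.05e-10) and 1.59 ± 0.17 log2 in F4 (SE, adjusted p = 9.3e-08). dod-17, a gene that falls in daf-2 mutants, fell by 1.12 log2 in F5 (SE 0.12, adjusted p = 6.5e-08). icl-1, the glyoxylate cycle gene, fell by 0.88 log2 in F4 (SE 0.10, adjusted p = 8.6e-07).

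Of 19 regulators of intestinal stress genes, 1 was higher and 5 lower in F5 mutants, near the 33.1% of all probe sets that passed. In F4 mutants 3 were higher and 2 lower, where 10.3% of all probe sets passed. mek-1, a MAP kinase kinase gene, was higher by 0.58 ± 0.10 log2 (adjusted p = 8.5e-05), and egl-9, the prolyl hydroxylase that restrains HIF-1, fell by 0.53 log2 (SE 0.098, adjusted p = 1.4e-04) in F5. pqm-1 was higher by 0.78 ± 0.13 log2 (adjusted p = 1.2e-04) and pmk-1, the p38 kinase gene, by 0.42 ± 0.11 log2 (SE, adjusted p = 0.014) in F4. Of the 6 yolk genes, vit-2 was higher by 2.58 ± 0.62 log2 (adjusted p = 0.0022) and vit-6 by 2.09 ± 0.57 log2 (SE, adjusted p = 0.0059) in F5 mutants. In F4 mutants 0 of 6 passed as given above, with vit-1 at 0.54 log2 (adjusted p = 0.43) and vit-2 at 0.34 log2 (adjusted p = 0.76). Of 15 moulting cycle genes, 0 were higher and 13 lower in F5 mutants, where 16.1% of all probe sets were lower. In F4 mutants 0 were higher and 2 lower, near the 10.3% that passed. The F4 median of the moulting genes was 0.29 log2 on birth day 2 and -0.37 log2 on birth day 1. mlt-10 fell by 0.96 log2 (SE 0.13, adjusted p = 3.5e-06) in F5 and by 0.53 log2 (SE 0.13, adjusted p = 0.0097) in F4. phat-4 fell by 0.84 log2 (SE 0.16, adjusted p = 1.9e-04) in F5 and by 0.71 log2 (SE 0.16, adjusted p = 0.0036) in F4.

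In +/+ from wdr-5 against +/+ from +/+, 0 of 95 genes of the 7 lists passed in F5 or F4 by limma, with 0 in F5 and 6 in F4 at an unadjusted p under 0.05. Between F5 and F4 in +/+ from wdr-5, 4 of 15 moulting genes were higher, near the 20% of all probe sets, and 4 of 6 yolk genes were lower, beside 4.76%. In +/+ from +/+, 10 moulting genes were higher and 5 yolk genes lower, beside 16.8% and 4.96% of all probe sets. In mutants, 1 moulting gene was higher, beside 13.5%, and 0 yolk genes passed, with 0 at an unadjusted p under 0.05. The medians in mutants differed in sign between the days. For yolk the median was 1.19 log2 on birth day 2 and -1.43 log2 on birth day 1. For the moulting genes it was -0.22 log2 on birth day 2 and 0.26 log2 on birth day 1. With the yolk mean as a covariate, the F5 minus F4 value of cdr-4 in +/+ from wdr-5 was -1.06 log2 (adjusted p = 7.9e-04).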

How the data were processed

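Array levels were deposited by the authors as log2 intensities; the submitters' processing notes name RMA, and the log base was inferred from the values. No array was left out. Differences were fitted on all 20806 probe sets that are not controls with limma 3.58.1 (intensity trend, R 4.3.3), with terms for the 6 groups and for birth day, separately by generation (27 residual degrees of freedom). Testing was two-sided with Benjamini-Hochberg adjustment over all probe sets at a threshold of 0.05. Day differences were tested with a mean for each group and day (23 residual degrees of freedom). The number of arrays limits the precision. Names came from RefSeq's gene table (WBcel235): 20164 probe sets matched, 600 kept the deposited symbol (cdr-5 among them) and 42 had none. The members and lists were chosen with earlier results of these data known. Named genes were the members, the 5 most and 3 least like cdr-4 and pud-4, wdr-5.1, and the 2 members of each list with the smallest p. A gene with several probe sets was represented by the one with the highest mean. Replicate numbers did not pair arrays: same-numbered arrays deviated with r from -0.30 to 0.50, and no comparison had every pair over 0.1. The procedure was tested on simulated data. Alternatives concerned the day term, single days, a replicate block, normalization, trend, filter, array weights, the yolk mean and each array left out.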

Additional observations from a re-analysis of the deposited data

Results flagged for a closer look

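cdr-4 lay above every same-day +/+ from +/+ array in all F5 mutant arrays and below every one in all F4 mutant arrays, a difference of 1.51 log2 between the generations. The gene was picked for this difference, which was not tested here. Of all probe sets, 8.48% lay above in this way in F5 and 3.03% below in F4. The share that did both was not counted. The fall of cdr-7 in F4 mutants differed between birth days by 0.886 log2, with a test of that difference. In 2 of 42 combinations of gene and group, 1 array stood apart from the others once the days were aligned, and chance alone gives about 1 in 20. F5 +/+ from +/+ replicate 5 was low in cdr-4, at 7.09 log2 day-adjusted against 7.65 to 7.99 in the other arrays, a gap of 0.627 of the group's range. F4 +/+ from wdr-5 replicate 1 was low in cdr-7, at 6.10 log2 day-adjusted against 6.35 to 6.43, a gap of 0.769 of the range.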

How the results depend on the processing

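The mutant differences of cdr-4 and pud-4, and the fall of cdr-4 between generations in +/+ from wdr-5, kept their direction under every alternative run. The birth day difference of pud-4 in F4 mutants, which was not tested, was at -0.04 log2 and turned to 0.12 log2 with the yolk covariate. Counts below are members past the threshold by limma. In F5 mutants against +/+ from +/+, the count was 1 on birth day 2 alone and 1 with the yolk covariate, beside 3; without 1 array it stayed at 3. In F4 mutants against +/+ from +/+, it was 1 on birth day 2 alone, beside 3. In F4 mutants against +/+ from wdr-5, it was 1 without a birth day term, 1 on birth day 2 alone, 4 with only the arrays of the groups compared and 4 with the yolk covariate, beside 2. For F5 minus F4 of the mutant difference, it was 0 to 1 without 1 array, beside 0; the 1 was cdr-2 without F5 mutant replicate 4 (adjusted p = 0.047). In that contrast 2 probe sets passed, against 4184 on birth day 2 alone, 20 on birth day 1 alone, 2373 with array weights, 21 with quantile normalization and 0 without a birth day term; the cause was not tested. In F5 against F4, mutants gave 1 with a common day term, 0 without one, 1 on birth day 2 alone, 1 with quantile normalization and 1 to 3 without 1 array, beside 2. +/+ from wdr-5 gave 1 without a day term, 1 on birth day 2 alone, 5 with only the arrays of the groups compared and 5 with array weights, beside 3. +/+ from +/+ gave 1 without a day term, 0 on birth day 2 alone, 1 on birth day 1 alone, 1 with quantile normalization, 1 with the yolk covariate and 1 to 2 without 1 array, beside 2. For birth day 2 minus birth day 1, the F5 mutant difference gave 1 with array weights, beside 0. The F4 mutant difference gave 3 with quantile normalization, 2 with only the arrays of the groups compared, 0 with the yolk covariate and 0 to 1 without 1 array, beside 1. The F4 descendant difference gave 3 with array weights, beside 0. The cause of these shifts was not tested.

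Signs turned only in values that missed the threshold. cdr-2 in F5 mutants was at 0.10 log2 on birth day 1 alone, 0.13 with the yolk covariate and -0.15 to 0.075 without 1 array against +/+ from +/+, and at 0.14, 0.13 and -0.15 to 0.093 against +/+ from wdr-5. cdr-1 in F4 mutants against +/+ from wdr-5 was at 0.11 log2 on birth day 1 alone, and cdr-2 in F5 against F4 mutants at -0.066 log2 on birth day 2 alone. Of 49 further values that missed the threshold, 27 changed sign in some alternative. The turned values reached at most 0.29 log2 in size, and 0 of them passed. With their sign kept, 10 of the 49 passed in some alternative. With the replicate number as a block, F5 against F4 gave 1 member in mutants and 1 in +/+ from +/+, where cdr-1 was lost, and pud-4 in +/+ from wdr-5 was at 0.45 log2 (adjusted p = 0.054); other counts of members in the comparisons within and between generations moved by at most 1. pud-4 fell below the filter on the first quartile of mean level and has no value there. Signal limits pud-4 most, since its F4 levels lie near the low end of the arrays, which differs between days.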
